A study of Mus musculus with 6 samples.

Results

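The forkhead genes of the mouse were followed in RNA-Seq of embryonic ureters treated with LiCl. Members were taken from a list of 38 forkhead gene symbols, all of which were found among the 56748 gene identifiers of the deposited count table. A gene was kept when it had 10 or more counts in at least 3 of the 6 samples, which left 24 genes. The samples were ureters of wildtype NMRI mouse embryos, an outbred strain, explanted at E12.5 and cultured for 18 h. The control group (n = 3) received water and the LiCl group (n = 3) received 15 mM LiCl, which blocks the kinase GSK3B and thereby activates WNT signaling through beta-catenin. Both groups carried no engineered allele. The labels do not say whether the samples of a group came from separate litters, so p-values measure the spread between these samples, which may be technical. The study used the cultures to ask whether ectopic WNT signaling lowers the transcription factor genes that promote ureter differentiation. The whole organ was sequenced, so a gene with less RNA per cell and a gene with fewer expressing cells cannot be told apart.

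Forkhead factors bind DNA through a conserved winged-helix domain, the forkhead box, and differ mainly outside of it. FOXA proteins open closed chromatin in epithelia of endodermal and urogenital origin, and *Foxa1* is linked to the differentiation of superficial urothelial cells. FOXF proteins act in mesenchyme downstream of hedgehog signals from the adjacent epithelium, FOXC and FOXD proteins pattern the mesenchyme of the early urinary system, and FOXO proteins are kept out of the nucleus when insulin and AKT signaling is active.

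Total counts per sample lay between 28473436 and 31266945 and overlapped between the groups. *Cdh1* and *Epcam*, which define epithelium, were present in every sample at 115 CPM or more (CPM being counts scaled to a common library size), and *Tbx18* and *Pdgfra*, which mark ureteric mesenchyme, at 236 or more. Epithelium and mesenchyme were thus both represented. Markers of other cells were also read. *Six2* of nephron progenitors lay at 2.42 CPM or less, *Pecam1* of endothelium at 87.3 to 111 CPM, *Ptprc* of leukocytes at 3.4 to 8.81 CPM and *Sox10* of glia at 16.5 to 21 CPM. *Six2* was among the low genes of the nephron list, as was *Meox1* at 1.08 CPM or less. In the same list, *Pax2* lay at 64.8 to 80.3 CPM and *Osr1* at 40.9 to 48.8 CPM, so *Six2* does not stand for the whole list. At an adjusted p under 0.05, 3 of 12 nephron markers were higher and 4 lower, and 1 of 10 endothelial markers was lower. Of 7 macrophage markers, 1 was higher and 4 were lower, and 1 of 7 neural crest and glial markers was lower. Among all tested genes, 21.1% were higher and 22.4% lower. LiCl replicates 1 and 3 stood apart in skeletal muscle markers, of which 4 of the 5 tested were higher. The summed level of the 8 muscle markers was 28.6, 5.19 and 59.4 CPM in LiCl replicates 1 to 3 and 4.76 to 5.83 CPM in the controls, and *Myog* was at 2.45, 0.143 and 6.81 CPM after LiCl.

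A stretch of the forkhead box is printed for *Foxq1*, the gene with the largest change, and for *Foxd2*, which also fell. It shows how much sequence these 2 members have in common. The stretch is the longest part without gaps in a local alignment of their proteins, 69 codons, and may not cover the whole box. Each stretch has 207 coding bases of the GENCODE M21 transcript (assembly GRCm38), written 5′ to 3′. It lies at coding bases 343 to 549 of *Foxq1* and 385 to 591 of *Foxd2*. Capitals mark the 140 bases (67.6%) that were identical in both genes.
Foxq1: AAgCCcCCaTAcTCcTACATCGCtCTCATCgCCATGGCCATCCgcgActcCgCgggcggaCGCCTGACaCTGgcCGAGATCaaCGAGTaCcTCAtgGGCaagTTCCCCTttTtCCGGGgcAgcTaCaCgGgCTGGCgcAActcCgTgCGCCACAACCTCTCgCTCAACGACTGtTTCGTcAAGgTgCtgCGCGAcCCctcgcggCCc
Foxd2: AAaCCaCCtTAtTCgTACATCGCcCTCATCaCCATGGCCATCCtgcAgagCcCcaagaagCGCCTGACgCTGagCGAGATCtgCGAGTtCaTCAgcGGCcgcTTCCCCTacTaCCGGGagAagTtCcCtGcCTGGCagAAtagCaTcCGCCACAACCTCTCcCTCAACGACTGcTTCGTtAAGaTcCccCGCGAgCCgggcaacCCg

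Translated in frame, the aligned stretch of *Foxf1* and *Foxf2* had 65.2% of its residues in common with *Foxq1*. The value was 62.3% for *Foxd2*, 58.0% for *Foxc1* and *Foxc2* and 56.5% for *Foxa2*. The FOXP members were the most distant of those aligned, at 37.7% to 42.0%. Over whole coding sequences, the longest run of identical bases between 2 of the members compared was 53 bases, in *Foxc1* and *Foxc2*. *Foxd1* and *Foxd2* had a run of 47 bases, and *Foxf1* and *Foxf2* one of 41.

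Of the 24 kept genes, 3 fell after LiCl with a log2 fold change below -1 and an adjusted p under 0.05, and 0 rose beyond 1. In the whole table, 4.59% of the 18188 tested genes were lower and 2.74% were higher at the same thresholds, 7.33% in all. The genes that fell were *Foxq1*, *Foxa1* and *Foxd2*. At an adjusted p under 0.05 alone, 8 members (33.3%) were lower, beside 22.4% of all genes, and 3 members were higher, beside 21.1% of all genes. The remaining 13 members did not pass the test. Counted in both directions, 11 members (45.8%) passed, close to the 43.5% of all tested genes. The median log2 fold change was -0.11 over the 24 members and -0.01 over all tested genes. All p-values of single genes come from edgeR's quasi-likelihood test on the counts, adjusted by the Benjamini-Hochberg method over all tested genes.

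**Figure D1:**
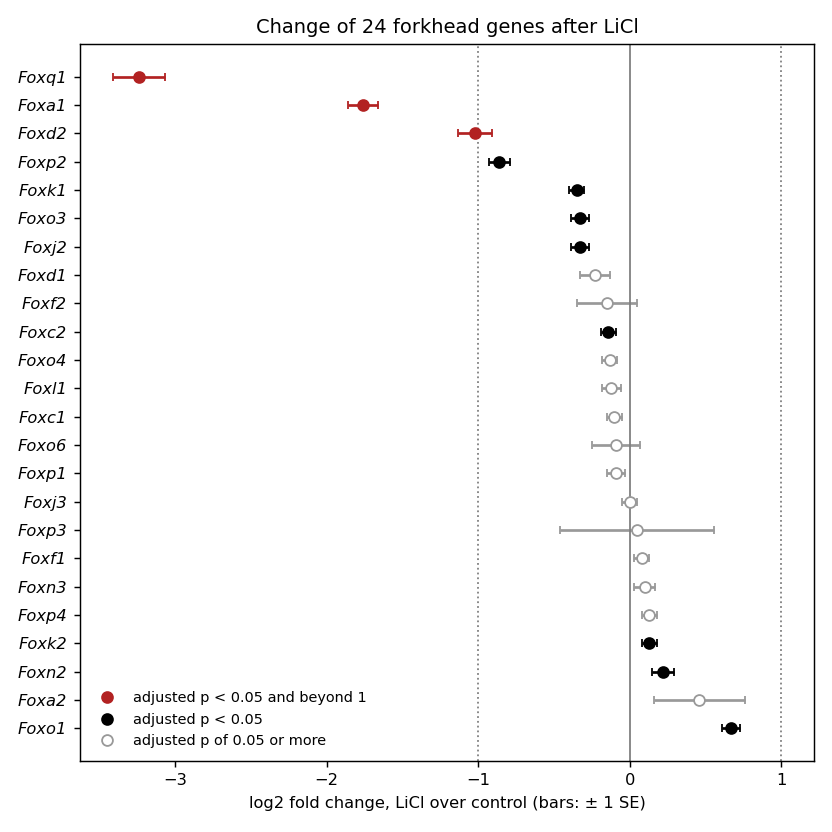
The horizontal axis gives the log2 fold change of LiCl over control with 1 standard error on either side, for each of the 24 kept forkhead genes from the lowest to the highest value, and dotted lines mark -1 and 1. *Foxq1* at -3.24, *Foxa1* at -1.76 and *Foxd2* at -1.02 lie at or beyond the left line, and the highest value is that of *Foxo1* at 0.67.

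*Foxq1* (ENSMUSG00000038415) showed the largest change in the family. It encodes a forkhead repressor known from epithelia, where it can respond to WNT signaling. *Foxq1* was at 39.4, 36.3 and 28.1 CPM in the 3 control samples and at 4.38, 3.87 and 2.73 CPM in the 3 LiCl samples. All LiCl samples lay far below all controls. The level fell 9.42-fold, a log2 fold change of -3.24 (SE 0.17, adjusted p = 1.9e-06). In FPKM, which are scaled by gene length, *Foxq1* went from 7.07 ± 1.17 to 0.756 ± 0.173 FPKM (SD, n = 3), from rank 18 to rank 22 among the 24 members. In the GENCODE M21 annotation, 65.7% of the 50-base windows of the *Foxq1* transcripts lie antisense to the gene *A530084C06Rik*, which was listed with 0 counts in all 6 samples. The strand setting of the counting is not given, so the 0 counts do not settle how reads of this overlap were handled. The level and rank of *Foxq1* are uncertain to that extent.

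*Foxa1* (ENSMUSG00000035451), the pioneer factor of urothelial and other epithelia, was the other member with a log2 fold change well below -1. Its level was 65.5, 54.7 and 49.7 CPM in the controls and 17.9, 16.8 and 15.6 CPM after LiCl. The 3 LiCl samples were tightly grouped below all controls. This was a 3.38-fold decrease, a log2 fold change of -1.76 (SE 0.10, adjusted p = 2.9e-06). *Foxa1* dropped from rank 10 among the members in the controls, at 16.8 ± 2.31 FPKM, to rank 17 after LiCl, at 5.04 ± 0.332 FPKM (SD, n = 3). *Foxa2*, its paralog, was scarce. It was at 0.626, 0.548 and 0.946 CPM in the controls and at 0.837, 0.931 and 1.17 CPM after LiCl, so that the groups overlapped (log2 fold change 0.46, SE 0.30, adjusted p = 0.23). *Foxa3*, the remaining FOXA gene, had at most 5 counts in any sample. Summed over *Foxa1*, *Foxa2*, *Foxa3* and *Foxq1*, the level was 79 to 106 CPM in the controls and 19.6 to 23.2 CPM after LiCl.

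The promoter of *Foxa1* is printed because it was the promoter of a called member with a match to one of the searched motifs. The motifs were TCF/LEF (CTTTGAT), forkhead (TGTTTAC) and the GLI core (ACCACCC), sought on both strands in RefSeq windows from 250 bases before to 50 bases after a gene start. Of the 24 kept members, 15 had a window, 20 windows in all. *Foxq1* had no window, so its promoter was not searched, and the window of *Foxd2* held no match. A forkhead match was found in *Foxa1*, a TCF/LEF match in 1 of the windows of *Foxa2*, and a GLI core match in 0 members. Among all 32851 windows, 3.65% held the forkhead motif, 3.73% the TCF/LEF motif and 4.61% the GLI core. The sequence below gives the 250 bases before the start of *Foxa1* (GRCm38.p6, chr12:57546112-57546361, minus strand), with the forkhead match, read on the opposite strand, in capitals.
Foxa1 promoter: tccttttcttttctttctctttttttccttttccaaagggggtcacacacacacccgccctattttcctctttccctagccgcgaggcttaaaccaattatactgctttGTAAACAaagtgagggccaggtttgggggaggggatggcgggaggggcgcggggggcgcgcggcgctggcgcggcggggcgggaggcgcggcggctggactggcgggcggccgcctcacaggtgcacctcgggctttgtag

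*Foxa1* and *Foxq1* moved together with markers of the ureteric epithelium. Of 18 such markers, all tested and present in all samples, 14 were lower and 1 was higher at an adjusted p under 0.05. Among all tested genes, 22.4% were lower and 21.1% higher. The log2 fold changes of the markers ran from -1.63 to 0.37 (median -0.56). Their summed level was 1700 to 2050 CPM in the controls and 1250 to 1300 CPM after LiCl. *Cdh1*, the epithelial cadherin, fell by 0.99 on the log2 scale (adjusted p = 8.5e-06), whereas the adhesion gene *Epcam* rose (0.37, adjusted p = 0.00067). Per 100 CPM of summed epithelial markers, *Foxa1* was at 3.2, 2.83 and 2.92 CPM in the controls and at 1.38, 1.33 and 1.25 CPM after LiCl. On the same scale, *Foxq1* was at 1.92, 1.88 and 1.65 CPM in the controls and at 0.337, 0.307 and 0.218 CPM after LiCl. Relative to these markers, *Foxa1* was thus 2.26-fold and *Foxq1* 6.33-fold lower on average. The part of epithelial content in these decreases was not tested further.

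Urothelial partners and targets of FOXA1 were listed as the pathway around this gene. Of 15 listed genes, all tested, 12 were lower and 0 higher at an adjusted p under 0.05, beside 22.4% and 21.1% of all tested genes. Beyond the fold threshold 6 were lower, beside 4.59% of all tested genes. The median log2 fold change was -0.75, beside -0.01 for all tested genes. Of the 18 markers of the ureteric epithelium, which also include *Gata3*, 14 were lower and 1 was higher. Beyond the fold threshold 3 of them were lower, and their median was -0.56. Lower levels were thus not particular to the genes listed around FOXA1. *Pparg*, a nuclear receptor that acts with FOXA1 in superficial cells, was at 18.1, 14 and 14.3 CPM in the controls and at 5.53, 5.91 and 5.75 CPM after LiCl (log2 fold change -1.43, SE 0.12, adjusted p = 2.7e-05). The 3 largest decreases were those of *Snx31* (-2.65, SE 0.43), *Upk1b* (-1.95) and *Upk2* (-1.67). Of these, *Snx31* was scarce, at 0.709 to 1.32 CPM in the controls and 0.0716 to 0.193 CPM after LiCl. *Snx31* encodes a sorting nexin that binds uroplakins, and *Upk1b* and *Upk2* encode uroplakins of the apical plaque. The 3 smallest decreases that passed were those of *Gata3* (-0.18, adjusted p = 0.017), *Klf5* (-0.25, adjusted p = 0.017) and *Upk3b* (-0.65, adjusted p = 0.024), all epithelial genes. Each of these 3 calls was lost without at least 1 of the samples. *Gata3* reached an adjusted p of up to 0.063 without control replicate 1, LiCl replicate 2 or LiCl replicate 3. *Klf5* reached up to 0.059 without control replicate 1 or LiCl replicate 2, and *Upk3b* up to 0.086 without control replicate 1, LiCl replicate 1 or LiCl replicate 3.

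**Figure D2:**
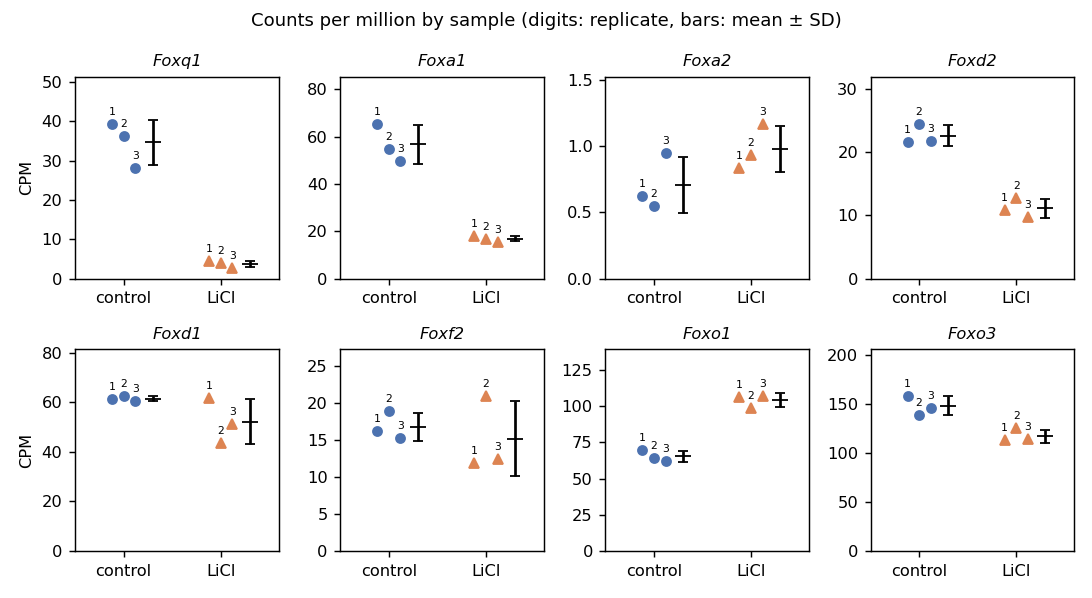
The panels give the CPM of 8 forkhead genes in each sample on axes that start at 0, with the mean ± SD of each group (n = 3) beside the points. *Foxq1*, *Foxa1* and *Foxd2* have all LiCl samples below all controls, *Foxo1* has all above, and LiCl replicate 2 lies at 21 CPM in *Foxf2*, above the controls, while the other LiCl samples lie below them.

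*Foxd2* (ENSMUSG00000055210) was the third member past the fold threshold. FOXD proteins are known from the stroma around the developing kidney and ureter. *Foxd2* was at 21.6, 24.5 and 21.7 CPM in the controls and at 10.8, 12.8 and 9.75 CPM after LiCl, with no overlap. The level fell 2.03-fold, a log2 fold change of -1.02 (SE 0.11, adjusted p = 9.1e-05). The estimate lay at the threshold itself. It was -0.95 without control replicate 2, -1 without LiCl replicate 1 and -0.93 without LiCl replicate 3, each with an adjusted p under 0.05. *Foxd1*, the classical marker of the renal stroma, was the FOXD gene with the higher FPKM. It was at 61.2, 62.5 and 60.4 CPM in the controls and at 61.7, 43.7 and 51.3 CPM after LiCl. LiCl replicate 1 lay among the controls and replicates 2 and 3 below them (log2 fold change -0.23, SE 0.10, adjusted p = 0.10). Without LiCl replicate 1, the value was -0.37 and passed (adjusted p = 0.0049). *Foxd4*, *Foxb1* and *Foxb2* had at most 2 counts in any sample.

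The mesenchymal members *Foxf1*, *Foxf2*, *Foxl1*, *Foxc1* and *Foxc2* were close to their control levels. *Foxf1*, a hedgehog-dependent regulator of visceral smooth muscle, was at 46.4, 45.9 and 44.2 CPM in the controls and at 50.6, 47.1 and 46.6 CPM after LiCl. All LiCl samples were above all controls, by a margin that did not pass the test (log2 fold change 0.08, SE 0.05, adjusted p = 0.25). *Foxf2*, its paralog, was at 6.72, 7.97 and 6.42 FPKM in the controls and at 5.06, 8.9 and 5.32 FPKM after LiCl. LiCl replicate 2 was the highest of the 6 samples and the other LiCl samples the lowest (log2 fold change -0.15, SE 0.20, adjusted p = 0.57). Without LiCl replicate 2, *Foxf2* was lower after LiCl (-0.46, adjusted p = 0.012). LiCl replicate 2 was also the LiCl sample in which the muscle markers lay in the range of the controls, and a relation between the 2 was not tested.

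*Foxc2*, which acts in lymphatic and mesenchymal development, fell slightly, from 109, 113 and 113 CPM to 105, 101 and 98.1 CPM (log2 fold change -0.14, SE 0.05, adjusted p = 0.04). The groups did not overlap, but the call was lost without control replicate 2 or 3 or LiCl replicate 2 or 3, with an adjusted p of up to 0.19. *Foxc1*, its paralog, had a log2 fold change of -0.10 (SE 0.05, adjusted p = 0.099), and *Foxl1*, another gene of mesenchyme next to epithelium, one of -0.12 (SE 0.06, adjusted p = 0.097). Summed over *Foxf1*, *Foxf2*, *Foxl1*, *Foxc1*, *Foxc2* and *Foxs1*, the level was 378 to 400 CPM in the controls and 350 to 370 CPM after LiCl.

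Markers of the ureteric mesenchyme moved in both directions beside these genes. Of 13 markers, all tested and none at 0 in any sample, 8 were lower and 4 higher at an adjusted p under 0.05. Among all tested genes, 22.4% were lower and 21.1% higher. The median log2 fold change of the markers was -0.40. Their summed level was 9210 to 10100 CPM in the controls and 7020 to 7690 CPM after LiCl. *Pdgfra* (-0.85, adjusted p = 1.8e-05) and *Tbx18* (-0.58, adjusted p = 7.7e-05) were lower. The part of mesenchymal content in the values of the mesenchymal forkhead genes was not tested.

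The hedgehog pathway that lies upstream of *Foxf1*, and *Bmp4* and smooth muscle genes downstream of it, were listed as 14 genes, all tested. Of these, 7 were lower and 1 was higher at an adjusted p under 0.05, beside 22.4% and 21.1% of all tested genes. Beyond the fold threshold there were 0 in either direction, and the median log2 fold change was -0.20. The ligand *Shh* was at 23.2, 22.7 and 23.7 CPM in the controls and at 20.7, 29.1 and 22.2 CPM after LiCl (log2 fold change 0.05, SE 0.12, adjusted p = 0.77). The receptor gene *Ptch1*, itself a pathway target, had a log2 fold change of 0.10 (SE 0.07, adjusted p = 0.32). *Gli1*, another classical target, rose, from 228, 239 and 243 CPM to 316, 261 and 283 CPM (log2 fold change 0.28, SE 0.07, adjusted p = 0.0096). The ligand-binding inhibitor *Hhip*, which the study also names as a direct target of the pathway, fell (-0.78, adjusted p = 2e-04). The named targets thus did not move in 1 direction. Lower levels were also found for the ligand-binding *Boc* (-0.49, adjusted p = 0.00028) and for the effector *Gli2* (-0.39, adjusted p = 7e-04). *Bmp4*, the signal required for smooth muscle and urothelial differentiation, went from 157, 172 and 161 CPM to 141, 139 and 139 CPM (-0.22, SE 0.05, adjusted p = 0.0049), and the transcription factor gene *Gata6* fell by the same amount (-0.22, adjusted p = 0.012).

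The FOXO genes, which mediate responses to growth factor withdrawal, went in different directions. *Foxo1* (ENSMUSG00000044167) had the highest log2 fold change of the family. It was at 69.7, 63.9 and 62 CPM in the controls and at 106, 98.4 and 107 CPM after LiCl, so that all LiCl samples lay above all controls. This was a 1.6-fold increase, a log2 fold change of 0.67 (SE 0.06, adjusted p = 3.4e-05) that stayed under the fold threshold. *Foxo1* moved from rank 17 to rank 10 among the members by FPKM. *Foxo3* fell, from 158, 139 and 146 CPM to 113, 125 and 114 CPM (log2 fold change -0.33, SE 0.06, adjusted p = 0.0024), again without overlap. *Foxo4* (-0.13, SE 0.05, adjusted p = 0.076) and *Foxo6* (-0.09, SE 0.16, adjusted p = 0.66) did not pass. The summed level of the 4 genes was 278 to 307 CPM in the controls and 289 to 295 CPM after LiCl, so the groups overlapped.

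Genes known from other tissues as FOXO targets were listed as well, and 21 of 22 were tested. Of these, 5 were higher and 7 lower at an adjusted p under 0.05, beside 21.1% and 22.4% of all tested genes. Beyond the fold threshold, 1 was higher and 1 lower, beside 2.74% and 4.59% of all tested genes. The median log2 fold change was -0.08. *Klf2*, a transcription factor gene of quiescent cells, rose from 6.26, 5.19 and 6.69 CPM to 15.8, 12.4 and 14.4 CPM (log2 fold change 1.23, SE 0.13, adjusted p = 9.7e-05). *Klf4*, its relative, had a log2 fold change of 0.65 (adjusted p = 0.0048). *Cdkn1b*, which encodes the cell cycle inhibitor p27, rose from 78.2, 69.8 and 72.2 CPM to 111, 110 and 110 CPM (0.59, SE 0.05, adjusted p = 3.5e-05). The largest decreases were those of the transcriptional co-regulator *Cited2* (-1.08, adjusted p = 3.5e-06), of *Pdk4*, a kinase that limits pyruvate oxidation (-0.56, adjusted p = 0.013), and of the catalase gene *Cat* (-0.53, adjusted p = 5.7e-05). The call of *Pdk4* was lost without control replicate 3 (adjusted p = 0.058).

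**Figure D3:**
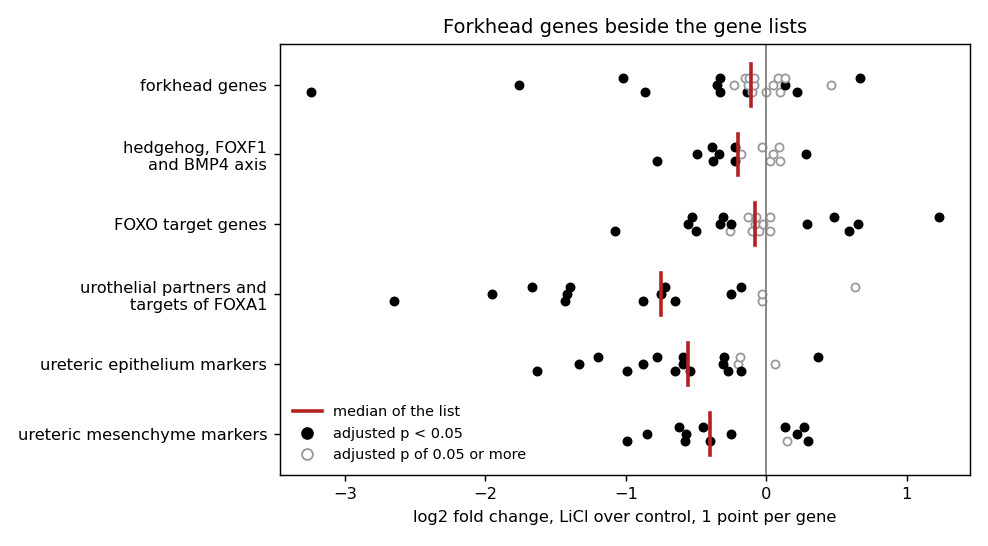
Each point is the log2 fold change of 1 tested gene (horizontal axis, LiCl over control), in rows for the forkhead genes, the 3 pathway lists and the markers of ureteric epithelium and mesenchyme, with a bar at the median of each. The medians are -0.11 for the forkhead genes, -0.20 for the hedgehog axis, -0.08 for the FOXO targets and -0.75 for the urothelial list.

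Among the FOXP genes, which encode repressors that bind DNA as dimers, *Foxp2* changed most. It fell from 97.1, 91.6 and 92.2 CPM in the controls to 48, 57 and 49.4 CPM after LiCl. The groups were widely separated, and the 1.82-fold decrease (log2 fold change -0.86, SE 0.07, adjusted p = 1.8e-05) stayed under the fold threshold. *Foxp1* (-0.09, SE 0.06, adjusted p = 0.29) and *Foxp4* (0.13, SE 0.05, adjusted p = 0.075) did not pass, although in *Foxp4* the LiCl samples at 243 to 267 CPM all lay above the controls at 218 to 239 CPM. *Foxp3*, the factor of regulatory T cells, was near the limit of detection. Its counts were 13, 6 and 18 in the control samples and 12, 19 and 6 in the LiCl samples, the lowest values of any kept member, and its transcripts overlap 4 other annotated genes, so its counts are uncertain.

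The broadly expressed members *Foxj2*, *Foxj3*, *Foxk1*, *Foxk2*, *Foxn2* and *Foxn3* showed small changes. *Foxk1*, a factor linked to metabolism and autophagy, fell from 146, 131 and 138 CPM to 105, 113 and 108 CPM (log2 fold change -0.35, SE 0.05, adjusted p = 0.00091). Its paralog *Foxk2* rose, from 114, 109 and 111 CPM to 120, 119 and 125 CPM (0.13, SE 0.05, adjusted p = 0.048). *Foxj2* fell from 43.4, 39.9 and 39.9 CPM to 33.5, 32.5 and 31.9 CPM (-0.33, SE 0.06, adjusted p = 0.0015), whereas *Foxj3* had a log2 fold change of 0 (SE 0.05, adjusted p = 0.95). *Foxn2* rose slightly, from 22.4, 22.2 and 25.5 CPM to 27.4, 26.2 and 27.9 CPM (0.22, SE 0.07, adjusted p = 0.032), and *Foxn3* did not pass (0.10, SE 0.07, adjusted p = 0.27). The calls of *Foxk2* and *Foxn2* were lost when single samples were left out. *Foxk2* was lost without any 1 of the 6 samples, with an adjusted p of 0.053 to 0.15. *Foxn2* was lost without control replicate 1 or 2 or LiCl replicate 1 or 3, with an adjusted p of up to 0.1. *Foxo1* was thus the member whose increase was called whichever sample was left out.

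Related members were compared by the log2 ratio of their CPM within each sample, for 9 pairs. In 5 pairs the ratios of the LiCl samples did not overlap with those of the controls. For single genes, the groups did not overlap in 54.2% of all tested genes, and a share over other pairs was not computed. With 3 samples against 3, the exact two-sided permutation test cannot give a p below 0.1, and the 5 pairs without overlap were at this limit (p = 0.1, adjusted p = 0.18 over the 9 pairs). The ratio of *Foxa1* to *Foxa2* was 6.56, 6.48 and 5.62 in the controls and 4.31, 4.08 and 3.66 after LiCl, a difference of -2.2. The ratio of *Foxo1* to *Foxo3* was -1.18, -1.12 and -1.23 in the controls and -0.08, -0.35 and -0.09 after LiCl, a difference of 1.01. The ratio of *Foxd1* to *Foxd2* rose by 0.78, with LiCl replicate 2 at 1.76 nearest to the controls at 1.35 to 1.5. The differences were -0.48 for *Foxk1* to *Foxk2*, from 0.31 ± 0.04 to -0.16 ± 0.08 (SD, n = 3), and -0.33 for *Foxj2* to *Foxj3*. In the 4 other pairs the groups overlapped. The differences were 0.27 for *Foxf1* to *Foxf2* (exact permutation p = 0.4), 0.03 for *Foxc1* to *Foxc2* (exact permutation p = 0.4), 0.12 for *Foxn2* to *Foxn3* (exact permutation p = 0.4) and -0.22 for *Foxp1* to *Foxp4* (exact permutation p = 0.2).

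**Figure D4:**
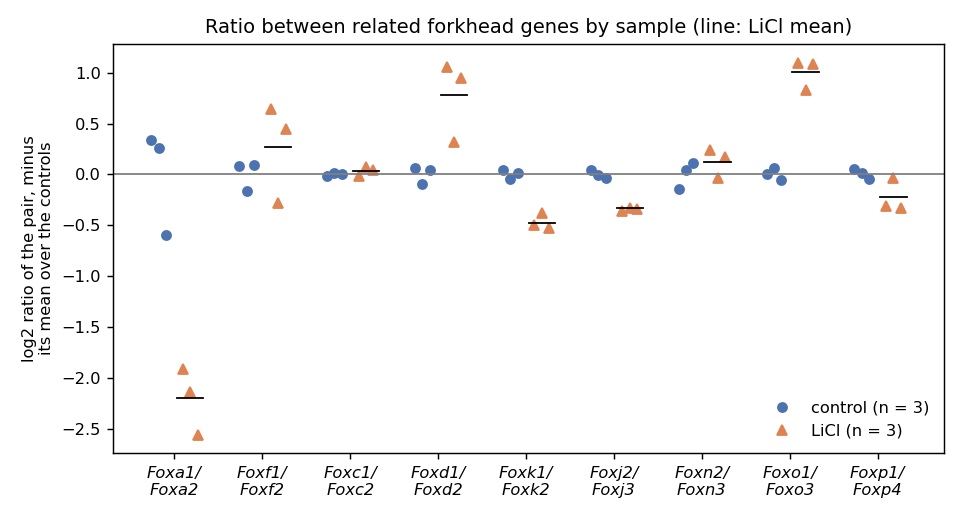
For 9 pairs of related forkhead genes, the vertical axis gives the log2 ratio of their CPM in each sample minus the mean ratio of the 3 controls, and a line marks the LiCl mean. The LiCl samples lie apart from the controls in *Foxa1* to *Foxa2* (-2.2), *Foxd1* to *Foxd2* (0.78), *Foxk1* to *Foxk2* (-0.48), *Foxj2* to *Foxj3* (-0.33) and *Foxo1* to *Foxo3* (1.01).

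The levels of the members were compared with each other only in FPKM, which are scaled by gene length. *Foxp4* was the most abundant member in the controls, at 43.5, 48.2 and 48 FPKM, and after LiCl, at 51.5, 49.3 and 54.4 FPKM. *Foxc2* followed, at 39.2, 41.3 and 40.9 FPKM in the controls and 38.6, 37 and 36.1 FPKM after LiCl. The third was *Foxl1*, at 33.3, 37 and 34 FPKM in the controls and 33.8, 31.4 and 31.6 FPKM after LiCl. These 3 genes kept their order, and in the controls their values did not overlap.

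The next members were hardly separated. *Foxo4* was at 21.2, 20.4 and 21.4 FPKM in the controls and 20.4, 19.4 and 18.6 FPKM after LiCl. *Foxk2* was at 21.4, 20.5 and 20.9 FPKM in the controls and 22.9, 22.6 and 23.9 FPKM after LiCl. *Foxc1* was at 19.2, 20.6 and 20.3 FPKM in the controls and 18.9, 19.3 and 18.5 FPKM after LiCl. *Foxo3*, *Foxf1*, *Foxk1* and *Foxa1* followed with control means from 19.3 down to 16.8 FPKM. From *Foxo4* to *Foxa1*, the control values of each member overlapped with those of its neighbours within this group. *Foxd1*, at 12 ± 0.252 FPKM (SD, n = 3), was separate from both of its neighbours and closed the group of 11 members with 10 FPKM or more. At the lower end, *Foxa2* at 0.295 ± 0.0884 FPKM and *Foxp3* at 0.0887 ± 0.0432 FPKM (SD, n = 3) were the members with less than 1 FPKM in the controls. The summed level of the 24 members was 1810 ± 23.1 CPM in the controls and 1650 ± 12.6 CPM after LiCl (SD, n = 3).

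**Figure D5:**
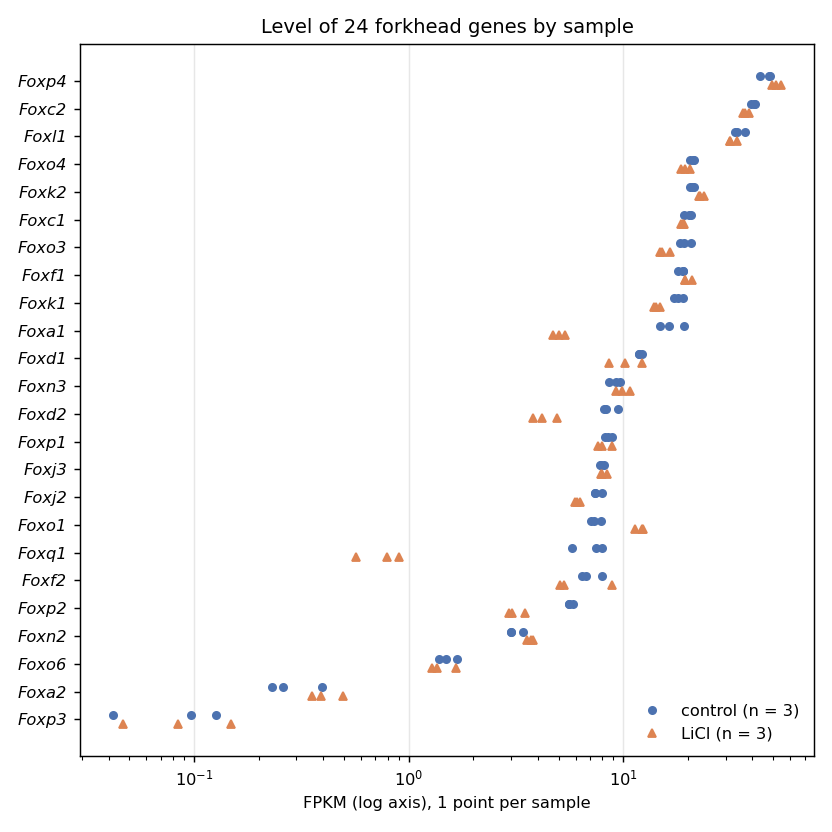
The FPKM of each kept forkhead gene in every sample are shown on a log axis, ordered by the control mean. *Foxp4*, *Foxc2* and *Foxl1* lead in both groups, and *Foxa1*, *Foxd2* and *Foxq1* lie to the left of their controls after LiCl, *Foxq1* at 0.756 FPKM on average.

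Across the 24 members, the groups did not overlap in 16 (66.7%), beside 54.2% of all tested genes. In 11 of these, LiCl was the lower group. The log2 fold changes of the 13 members that did not pass the test ranged from -0.23 in *Foxd1* to 0.46 in *Foxa2*.

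The 14 listed genes below the count rule were *Foxa3*, *Foxb1*, *Foxb2*, *Foxd4*, *Foxe1*, *Foxe3*, *Foxh1*, *Foxi1*, *Foxi2*, *Foxi3*, *Foxl2*, *Foxn1*, *Foxn4* and *Foxs1*. They were not tested in the main comparison. *Foxs1*, a gene of pericytes and neural crest derivatives, came closest to the rule, with 9, 10 and 9 counts in the controls and 3, 3 and 1 after LiCl. In the fit without a filter on low counts, *Foxs1* was lower after LiCl (log2 fold change -1.87, SE 0.68, adjusted p = 0.035), and the other 13 did not pass. Of these 13, the highest count in any sample was 9, in *Foxl2*.

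The annotated neighbours of the 3 members that fell were read in the same fit, in the RefSeq gene order of GRCm38.p6. Beside *Foxa1*, *Sstr1*, a somatostatin receptor gene, fell by 1.04 on the log2 scale (SE 0.13, adjusted p = 0.00029). *Ttc6* was lower (-0.57, adjusted p = 0.026), *Mipol1* was at -0.02 (adjusted p = 0.88) and *Prps1l3* was higher (0.22, adjusted p = 0.0038). Beside *Foxd2*, *Trabd2b*, which encodes a metalloprotease that inactivates WNT ligands, fell from 64.4, 54.6 and 57.5 CPM to 31.9, 37.2 and 36.3 CPM (-0.74, SE 0.08, adjusted p = 0.00011), and *Cmpk1* was lower by less (-0.17, adjusted p = 0.029). The long noncoding transcript *Foxd2os* at the same locus fell from 18.6, 20.4 and 16.9 CPM to 11.1, 11.6 and 9.72 CPM (-0.79, SE 0.10, adjusted p = 0.00028).

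*Foxq1* lies in a cluster with *Foxf2* and *Foxc1*, neither of which passed the test, and its neighbour *Exoc2* on the other side was at 0.02 (adjusted p = 0.76). In the second cluster, of *Foxf1*, *Foxc2* and *Foxl1*, the gene *Mthfsd* had a log2 fold change of 0.10 (adjusted p = 0.30). The long noncoding transcript *Fendrr*, transcribed away from *Foxf1*, was at 23.4, 20.7 and 23.4 CPM in the controls and at 15.9, 16.6 and 13.1 CPM after LiCl. All LiCl samples lay below all controls (-0.56, SE 0.10, adjusted p = 0.0017), whereas those of *Foxf1* lay above.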

How the data were processed

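RNA of 3 control and 3 LiCl samples was enriched for poly-A transcripts, made into stranded libraries and sequenced by a service provider. The authors deposited raw counts per Ensembl gene, made against GRCm39 with featureCounts. The aligner is HISAT2 in the study's methods, whereas the submitters' processing notes list STAR 2.7, fastp 0.23, featureCounts 2.0 and DESeq2 1.40. The annotation release and the strand setting of the counting are not given in the sources used here, so overlapping genes are uncertain. The authors also deposited FPKM per sample, with no calculation given. In the tables, 0 sample columns were left unused. Symbols came from GENCODE M21 (GRCm38), which named 52073 of 56748 identifiers. Promoter windows and gene order came from RefSeq (GRCm38.p6), and no coordinates were carried between builds.

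The quasi-likelihood test of edgeR 4.0.16 (R 4.3.3), after its filterByExpr and TMM steps, was applied to all 6 samples without covariates, with Benjamini-Hochberg adjustment over 18188 genes. CPM are counts scaled to library size after TMM. Calls required a log2 fold change beyond 1 with an adjusted p under 0.05, or the adjusted p alone, as named in the text. Log2 ratios of pairs used CPM with a prior count of 2 and an exact two-sided permutation test. Between samples of 1 group, the chi-square statistic per degree of freedom was 5.93 to 14.5, so no sample was a copy of another. The script was tested on simulated counts before use.

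The members, lists and pairs were chosen with earlier results of these data known. All kept members are named. Values in every sample are given for those past the fold threshold and the 6 of highest FPKM, and for others chosen after their values were seen. Of each pathway list, up to 3 genes at either end of those that passed are named, with *Shh*, *Ptch1*, *Gli1*, *Bmp4*, *Pparg* and *Gata3*. The noncoding transcripts beside forkhead genes and the scaling to epithelial markers were added after the values were seen. The alternatives used RLE size factors, the library size alone, DESeq2 1.42.0, 3 other filters, the replicate number as a block, each sample left out, limma 3.58.1 on log2(FPKM + 1) or log2(FPKM + 0.1), with and without a minimum mean FPKM of 0.5, and glmTreat. Some coding sequence is not reported here.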

Additional observations from a re-analysis of the deposited data

How the results depend on the processing

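*Foxq1* and *Foxa1* were called lower beyond the fold threshold under all 17 alternatives, with log2 fold changes from -3.39 to -3.06 and from -1.84 to -1.64 over the count-based fits. On the FPKM scale the values were smaller, from -3.07 to -2.19 for *Foxq1* and from -1.71 to -1.56 for *Foxa1*. *Foxd2* kept an adjusted p under 0.05 except with glmTreat (adjusted p = 1), but lay inside the fold threshold without a filter (-0.99), on the FPKM scale (-0.86 to -0.99) and without each of 3 samples (-0.93 to -1), so 2 to 3 members were called. The number of members higher at an adjusted p under 0.05 was 3 in the main comparison, 1 with library size only and 1 to 2 when single samples were left out. Without a filter on low counts, *Foxp4* was higher in addition to these 3. With library size only, *Foxc1* and *Foxo4* were lower in addition to the 8 of the main comparison. Library size only moved the median of all tested genes from -0.01 to -0.05. In the urothelial list, the number of higher genes went from 0 to a range of 0 to 1 when samples were left out, the gene being *Krt5* without LiCl replicate 3 (0.95, adjusted p = 0.034). Over all alternatives, 368 values of single members kept their call or their lack of one. Another 29 lost a call, all in *Foxc2*, *Foxk2* and *Foxn2* except that of *Foxd2* with glmTreat, and 6 passed in addition. Among members without a call the sign could change, as in *Foxp3* and *Foxj3*. Here glmTreat, which tests against the fold threshold itself, was compared with the calls beyond that threshold. The members that passed by the adjusted p alone were not called by it, and *Foxq1* and *Foxa1* were. No value of a called member changed sign. Over all tested genes, same-numbered samples were correlated in their deviations from the group means at 0.03, -0.09 and 0.1, so the numbers were not taken as pairs. The summed endothelial markers still rose from replicate 1 to 3 in both groups. They were at 584, 633 and 747 CPM in the controls and at 543, 563 and 670 CPM after LiCl. Summed neural crest and glial markers had no such shared order. Whether part of the genes is paired by number was not tested. With the replicate number as a block, *Foxc2* (adjusted p = 0.093) and *Foxk2* (adjusted p = 0.096) lost their calls, and 7 members were lower and 2 higher. The 14 genes below the count rule were tested without a filter alone, and the log2 fold change of *Foxp3* ran from -0.43 to 0.41 when single samples were left out.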
